A study of Mus musculus with 60 samples.

Results

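The 10 genes described here encode the MHC class II presentation machinery and its master regulator. They were chosen by name, with earlier results of these data known: H2-Aa, H2-Ab1, H2-Eb1, H2-DMa, H2-DMb1, H2-DMb2, H2-Oa, H2-Ob, Cd74 and Ciita. Each was matched by its Ensembl identifier to 1 of the 49315 genes in the count tables, and all 10 passed the count minimum in every comparison. Whole blood RNA was sequenced from 60 male CD2F1 mice, 5 to 6 weeks old when purchased, in 10 groups of 6. The mice took 12 oral doses over 6 days of either vehicle or BIO 300, a powder of the synthetic isoflavone genistein, and were bled on Day 0 or Day 1, which fell 24 and 48 h after dosing had ended. On each of the 2 days there was a vehicle group and a group at 50, 100 and 200 mg/kg. The remaining 2 groups, vehicle and 200 mg/kg, also received 9.2 Gy total body irradiation (TBI) from 60Co on Day 0 and were bled on Day 1, 24 h after it. The doses in mg/kg come from the study's methods, since the labels say only low, medium and high. CD2F1 mice are the offspring of BALB/c and DBA/2, which both carry the H-2d haplotype, whereas the GRCm38 reference carries the H-2b haplotype of C57BL/6. All groups share this cross, and how completely reads of the variable class II exons aligned was not tested.

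Class II molecules are pairs of an alpha and a beta chain that carry peptides of endocytosed proteins to the cell surface, where CD4 T cells read them. The invariant chain Cd74 blocks the groove during assembly, H2-DM exchanges its remnant for a peptide, and H2-O restrains H2-DM. Ciita turns the set on without binding DNA itself, through RFX, CREB and NF-Y proteins bound at the shared class II promoter, and in resting blood the set is kept on mostly in B cells, with monocytes and dendritic cells as other sources.

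The promoters of an alpha chain, a beta chain and an H2-O chain are shown because this shared promoter is what Ciita acts through. Its part in the levels described below was not tested. The sequences are from RefSeq (GRCm38.p6), 5′ to 3′ on the strand of the gene, and end at the base before the transcription start or before the annotated exon. Capitals mark ATTGG, the inverted CCAAT letters at the core of the Y box that NF-Y binds, or its reverse complement CCAAT.
H2-Aa, chr17:34287824-34287923, minus strand: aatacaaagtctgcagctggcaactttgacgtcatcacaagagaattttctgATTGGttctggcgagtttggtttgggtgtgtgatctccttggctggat
H2-Eb1, chr17:34305767-34305866, plus strand: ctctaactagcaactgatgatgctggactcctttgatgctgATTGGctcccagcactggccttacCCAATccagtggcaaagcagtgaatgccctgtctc
H2-Ob, chr17:34238805-34238902, plus strand: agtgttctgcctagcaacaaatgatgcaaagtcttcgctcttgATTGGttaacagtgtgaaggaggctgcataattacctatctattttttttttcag
The capitals began 48 bases before the RefSeq start in H2-Aa, 59 in H2-Eb1 and 57 in H2-Ob. Promoter entries were found for 7 of the 10 genes, and 6 of these 7 held the letters within 100 bases of a start, against 18.9% of 32851 promoters searched the same way on both strands. The exception was H2-DMa, the alpha chain of H2-DM, in which neither of 2 windows held them. The windows of H2-DMa, H2-DMb1 and H2-DMb2 lie inside the genes, downstream of the starts in the gene annotation. The promoters of H2-Ab1, Cd74 and Ciita were not analysed here. The letters are a description and do not show that a factor was bound.

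The 8 H2 genes lie on chromosome 17 between H2-Oa, which starts at 34092340, and H2-Eb1, which ends at 34316674 (GRCm38). Ciita lies on chromosome 16 (10480059 to 10528418, plus strand) and Cd74 on chromosome 18. Some counts are uncertain because of shared sequence: H2-DMb1 and H2-DMb2, similar neighbours that each encode an H2-DM beta chain, had 31.4% and 29.7% of their 31-base words in common. Exons also overlapped a gene on the other strand over 22.8% of H2-Oa, 10.4% of H2-DMa and 3.45% of Ciita, and the strandedness of the counting is not given in the sources used here.

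Library totals ranged from 15099415 to 45589415 counts, with a median of 24877994. In 16 mice, spread over all 10 groups, the liver transcript Alb exceeded 10 CPM (15.5 to 21980 CPM, against at most 6.95 CPM in the other mice), and all 16 carried odd animal numbers. Results were therefore also computed without these mice. The highest Alb value belonged to mouse 51 of the vehicle group with TBI, and mouse 57 of the 200 mg/kg group with TBI was another of the 16. Each was the highest of its group in 8 of the 10 class II genes, H2-Oa and H2-Ob being the exceptions. As a check of the tissue, 6 red cell genes summed to medians of 39780 to 456500 CPM over the groups.

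Across the 10 groups, all 10 genes shared the same broad order of medians. The 6 highest medians of each gene belonged to the vehicle groups of both days, the 3 doses on Day 0 and 50 mg/kg on Day 1, with 50 mg/kg on Day 0 highest. Next came 100 and 200 mg/kg on Day 1, and then the irradiated groups, with 200 mg/kg plus TBI lowest. Levels are in CPM, the count of a gene per 1e6 library counts, scaled with TMM over all 60 mice, and are compared within a gene only. They do not show whether fewer cells of a type or less RNA per cell lay behind a lower level, since bulk blood cannot tell these apart.

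Cd74, the invariant chain, ranged in the vehicle mice from 824 to 1427 CPM on Day 0 (median 1217) and from 937 to 1442 CPM on Day 1 (median 1132). At 50 mg/kg on Day 0 its lowest, median and highest levels were 1213, 1478 and 1702 CPM. At 100 and 200 mg/kg on Day 1 its medians were 360.1 and 431.5 CPM, with ranges of 335 to 767 and 187 to 685 CPM. After TBI it ranged from 41.6 to 164 CPM with vehicle (median 85.4) and from 42.0 to 152 CPM with 200 mg/kg (median 56.7). The irradiated groups thus overlapped each other and no other group.

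Ciita, the master regulator, had medians of 96.5 and 96.3 CPM in vehicle mice on Day 0 and Day 1 and 128 CPM at 50 mg/kg on Day 0. Its medians were 22.0 and 26.0 CPM at 100 and 200 mg/kg on Day 1, where no mouse exceeded 43.5 CPM. After TBI no mouse exceeded 6.20 CPM, and the medians were 3.15 CPM with vehicle and 2.15 CPM with 200 mg/kg. Between neighbours in this order, the 6th and 7th groups did not overlap in 7 of the 10 genes. The 8th and 9th did not overlap in 9 of 10, H2-DMb1 being the exception. Each gene's own medians set the order, so some separation of neighbours is built in. No share of all genes is given for these gaps. The 6 highest groups overlapped with their neighbours in all 10 genes, and so did the 2 irradiated groups.

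**Figure D1:**
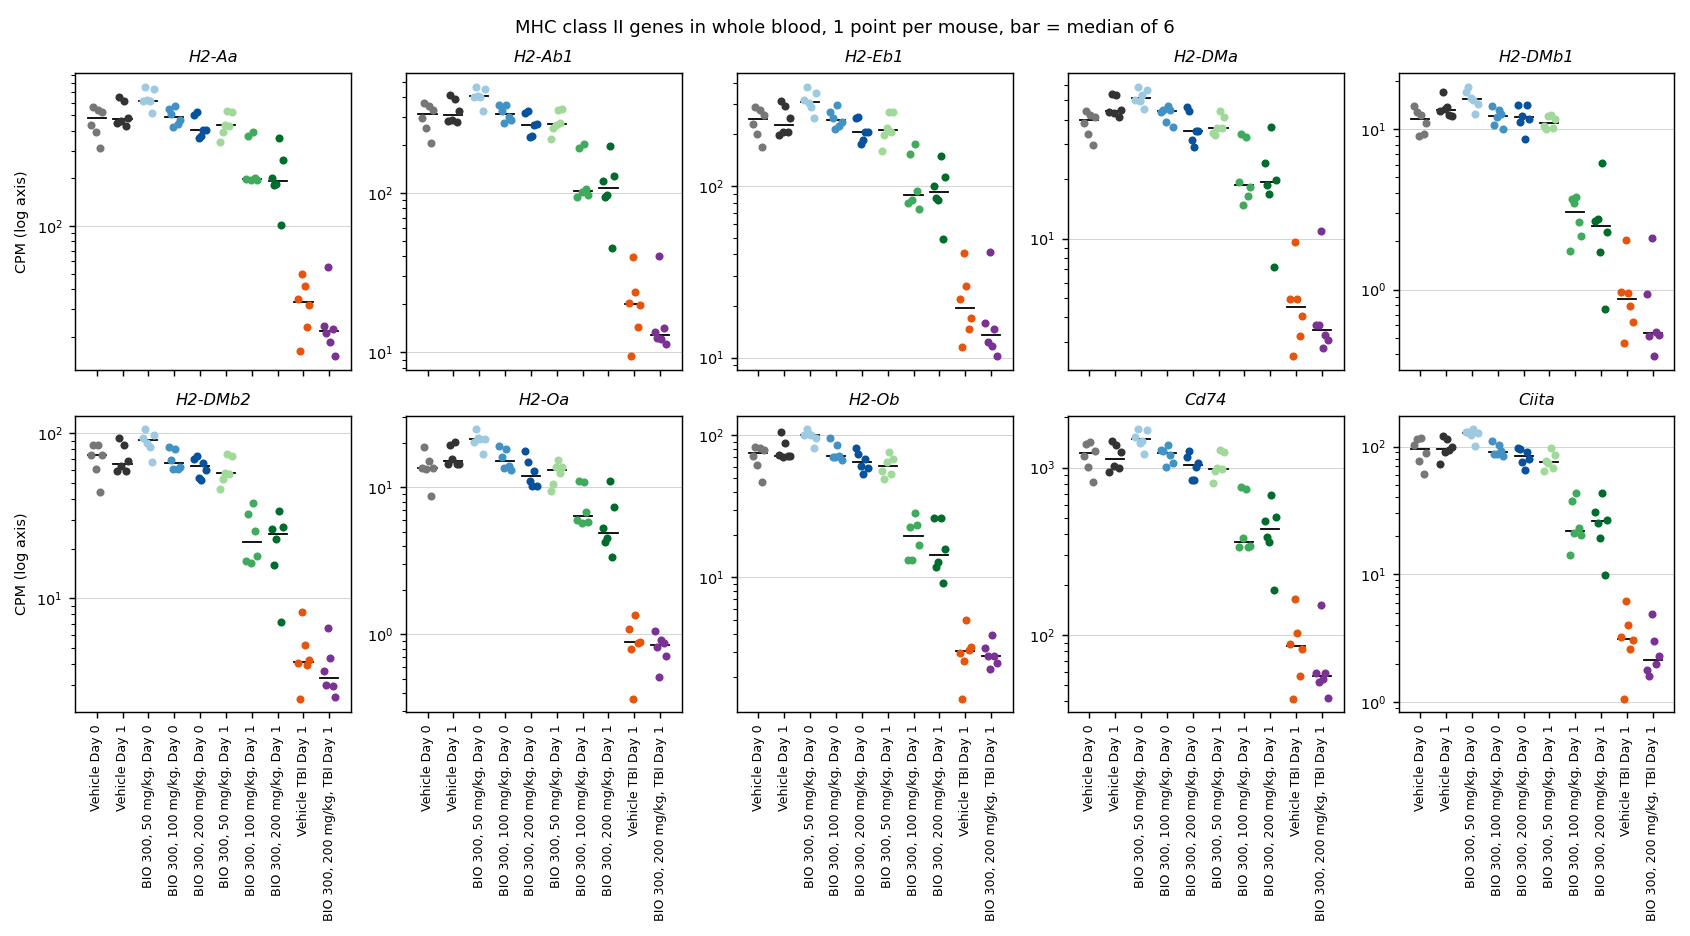
Level of each of the 10 genes in every mouse (CPM on a log axis, 1 point per mouse, bar at the median of 6), with the 10 groups along the horizontal axis. By their medians, the irradiated groups lie lowest in all 10 genes and the 100 and 200 mg/kg groups on Day 1 lie between them and the rest.

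The comparisons on Day 0 asked how BIO 300 had moved these genes by 24 h. At 50 mg/kg, all 10 genes had higher fitted values than in vehicle mice, with log2 fold changes from 0.35 to 0.62 (median 0.45, against 0.03 over all genes tested). A gene was called where its adjusted p was under 0.05 and its log2 fold change lay beyond 1 in either direction. None of the 10 was called in edgeR's quasi-likelihood test or in DESeq2, and 4.50% of all genes were in edgeR. By edgeR's adjusted p alone 5 of the 10 were higher, with 4.21% of all genes higher by that criterion, and 9 had an unadjusted p under 0.05. For counts at an unadjusted p, here and below, no share of all genes is given, and the 10 genes are not independent. H2-DMa ranged from 29.7 to 44.5 CPM in vehicle mice (median 39.8) and from 45.3 to 58.7 CPM at 50 mg/kg (median 51.5), and was the only one of the 10 in which the groups did not overlap, as in 2.54% of all genes in that direction. Its log2 fold change was 0.46 ± 0.10 (SE, n = 6 and 6, edgeR adjusted p = 0.00885).

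H2-Oa, an H2-O chain, had the largest value of the 10, with 8.72, 13.6 and 18.6 CPM (lowest, median and highest) in vehicle mice against 16.7, 21.4 and 24.9 CPM at 50 mg/kg, and a log2 fold change of 0.62 ± 0.15 (edgeR adjusted p = 0.015). The others that passed by adjusted p alone were H2-Ob (0.49 ± 0.13), H2-DMb1 (0.45 ± 0.12) and H2-Ab1 (0.45 ± 0.14). Cd74 had the smallest value, 0.35 ± 0.16, with an edgeR adjusted p of 0.163. The 7 B cell genes Ms4a1, Cd79a, Cd79b, Cd22, Pax5, Blk and Fcrla had log2 fold changes from 0.29 to 0.44. In the same mice the summed level of 6 red cell genes had a median of 39780 CPM (29990 to 107600), against 133800 CPM (87010 to 162400) in vehicle mice, and that of 7 platelet genes had a median of 1490 CPM against 3485 CPM. Of the 1103 genes called in this comparison, 1072 were lower and 31 higher. The part of these cells in the class II values was not tested. Scaled by library totals instead of TMM, 8 of the 10 were called higher, as were 10.5% of all genes, and the median of all genes stood at 0.69.

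At 100 and 200 mg/kg on Day 0, 0 of the 10 genes were called by edgeR or DESeq2, as were 0% of all genes in edgeR, and none had an unadjusted p under 0.05. Their log2 fold changes had medians of 0.09 and -0.11. Vehicle mice of Day 1 and Day 0 also differed in 0 of the 10 genes by either tool (edgeR 0% of all genes), with a median of 0.14 and 1 gene at an unadjusted p under 0.05. These comparisons and the one at 50 mg/kg share the vehicle mice of Day 0. The p-values set each difference against the spread between these mice.

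On Day 1 the groups at 100 and 200 mg/kg had lower levels of the class II genes than vehicle mice. At 200 mg/kg all 10 genes were called lower, with log2 fold changes from -2.23 to -1.10. Their median was -1.42, against -0.48 over all genes. In edgeR 30.5% of all genes were called lower in this comparison, and 30.5% were lower with no overlap between the groups, as all 10 class II genes were. At 100 mg/kg, 8 of the 10 were called lower, where 30.6% of all genes were, and all 10 passed by edgeR's adjusted p (40.6% of all genes were lower by it) and had no overlap, as 30.5% of all genes did in this direction. Their median was -1.22, against -0.38. At 50 mg/kg, 0 were called by edgeR (0% of all genes) or DESeq2, with log2 fold changes from -0.38 to -0.14 and 5 lower at an unadjusted p under 0.05. The comparisons on Day 1 share the same vehicle mice.

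Among the H2-DM genes, H2-DMb1 fell most. It ranged from 12.0 to 17.0 CPM in vehicle mice (median 13.2), from 1.75 to 3.78 CPM at 100 mg/kg (median 3.05) and from 0.759 to 6.16 CPM at 200 mg/kg (median 2.48), with no overlap. Its log2 fold changes were -2.16 ± 0.20 (edgeR adjusted p = 5.14e-07) and -2.23 ± 0.33 (5.03e-05). Its neighbour H2-DMb2 fell by 1.46 ± 0.23 and 1.60 ± 0.28 on the log2 scale, and how reads were split between these genes was not tested. H2-DMa fell by 1.10 ± 0.26 on the log2 scale at 200 mg/kg (edgeR adjusted p = 0.00234). At 100 mg/kg its log2 fold change of -0.97 ± 0.21 passed by adjusted p only (edgeR 0.00123).

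H2-Ob, the H2-O beta chain, ranged from 70.8 to 105 CPM in vehicle mice (median 72.1), from 13.2 to 28.3 CPM at 100 mg/kg (median 19.7) and from 9.11 to 26.4 CPM at 200 mg/kg (median 14.4). It fell by 1.96 ± 0.20 and 2.15 ± 0.25 on the log2 scale (edgeR adjusted p = 1.58e-06 and 3.63e-06). The alpha chain H2-Oa fell by 1.02 ± 0.21 and 1.38 ± 0.25 on the log2 scale. Ciita ranged from 73.0 to 122 CPM in vehicle mice (median 96.3), from 14.1 to 43.0 CPM at 100 mg/kg and from 9.97 to 43.5 CPM at 200 mg/kg, and fell by 1.82 ± 0.25 and 1.85 ± 0.26 on the log2 scale (edgeR adjusted p = 2.59e-05 and 3.11e-05).

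The chains that form the presented molecule had log2 fold changes from -1.46 to -0.92 at these doses. H2-Aa, the A alpha chain, ranged from 427 to 649.8 CPM in vehicle mice (median 474), from 195 to 393 CPM at 100 mg/kg (median 199.6) and from 101 to 359.9 CPM at 200 mg/kg (median 193). Its log2 fold change was -0.92 ± 0.23 at 100 mg/kg, short of the limit on size (edgeR adjusted p = 0.00283), and -1.18 ± 0.25 at 200 mg/kg (edgeR adjusted p = 0.000806). The beta chains H2-Ab1 (-1.25 ± 0.23 and -1.46 ± 0.26) and H2-Eb1 (-1.09 ± 0.24 and -1.26 ± 0.22) were called at both doses, and so was Cd74 (-1.20 ± 0.27 and -1.35 ± 0.25). The differences between members were not tested against each other.

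The same mice differed in the genes of other cells. All 7 B cell genes were called lower at both doses, with medians of -1.36 and -1.57 on the log2 scale. The summed level of 6 red cell genes had a median of 99210 CPM in vehicle mice (78480 to 116800) and of 456500 CPM at 200 mg/kg (275600 to 622700), and that of 7 platelet genes went from 2405 to 22350 CPM. The part of these cells in the class II results was not tested. Scaled by library totals, all 10 genes were called lower at both doses, as were 62.2% and 65.5% of all genes, whose median moved to -1.76 and -1.96. At 100 mg/kg the call of H2-Oa was lost without any of mice 26, 28, 37, 39, 41 and 42, that of H2-Eb1 without mouse 26 or 42, H2-Aa was called without mouse 38 or 40, H2-DMa without mouse 30, 38 or 40, and the number of called genes went from 6 to 10 over the fits that left out 1 mouse. The call of H2-DMa at 200 mg/kg was lost without mouse 47, at -0.92.

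**Figure D2:**
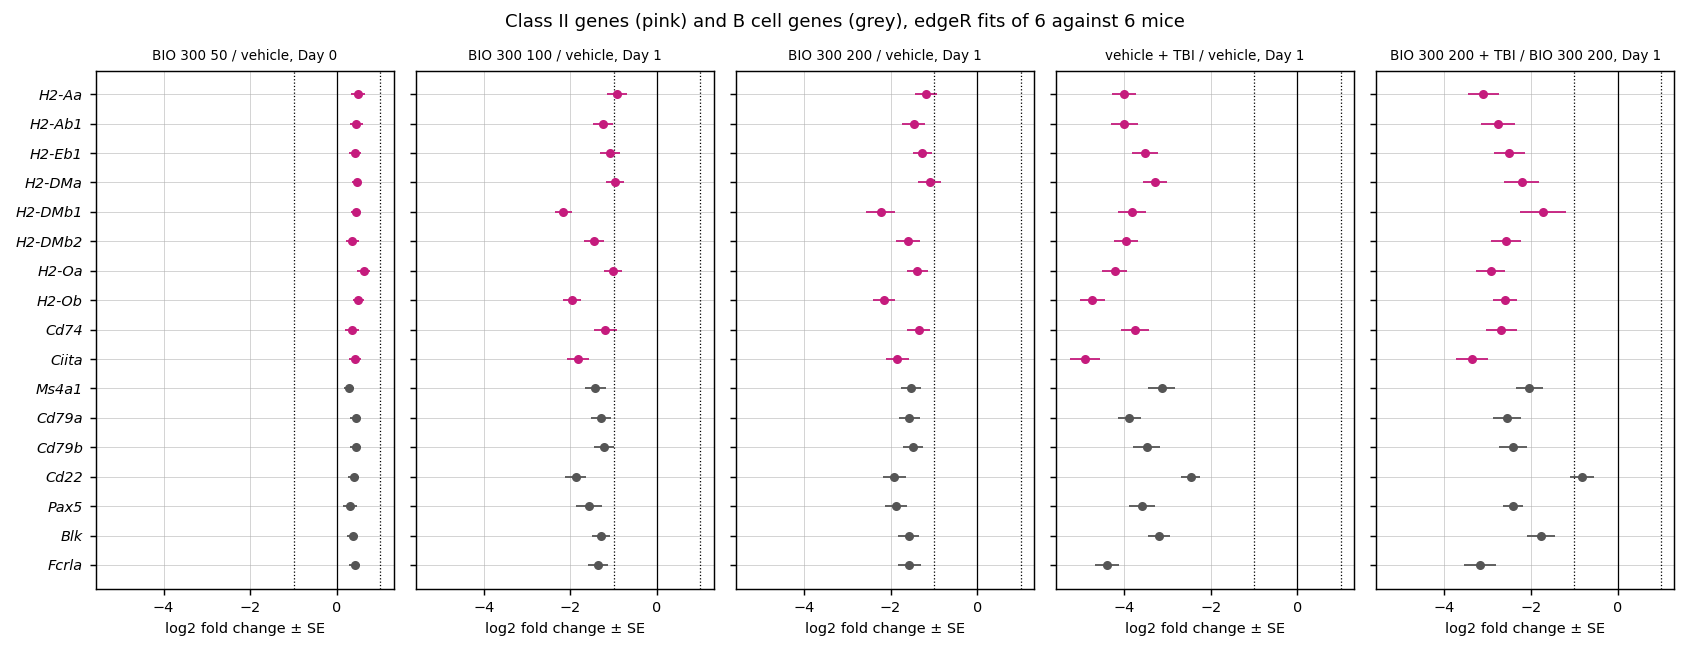
Log2 fold change of the 10 class II genes (pink) and of the 7 B cell genes (grey) in 5 comparisons of 6 against 6 mice. Points are edgeR estimates, bars are ± 1 SE, and dotted lines mark the limits of the call at 1 and -1. Points lie right of 0 at 50 mg/kg on Day 0 and left of it in the other 4 panels.

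Whether the effect of a dose differed between the days was tested as a day by dose contrast in fits of 4 groups. The effect of 100 mg/kg was called lower on Day 1 than on Day 0 for all 10 genes, with log2 differences from -2.25 for H2-DMb1 to -1.03 for H2-Aa (26.3% of all genes were called lower). All 10 were also called at 200 mg/kg, from -2.30 for H2-DMb1 to -1.06 for H2-DMa (23.6%). The same contrasts called all 7 B cell genes lower, with differences from -2.005 to -1.34 for the dose of 100 mg/kg and -1.72 to -1.28 for 200 mg/kg. All 8 T cell genes were called lower as well, from -2.30 to -1.12 and from -2.30 to -1.14. The part of these cells in the class II differences was not tested. At 50 mg/kg only H2-Oa was called (-1.01 ± 0.21, edgeR adjusted p = 0.00125, against 0.961% of all genes lower), while 7 passed by adjusted p alone (7.04% of all genes, lower). Of the 7 B cell genes 0 were called in edgeR at 50 mg/kg and 5 passed by adjusted p alone, all lower. The call of H2-Oa was lost with DESeq2, with another low-count filter and with none, and scaled by library totals all 10 were called lower, as were 38.7% of all genes.

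TBI was followed 24 h later by lower levels of all 10 genes. Against unirradiated vehicle mice of Day 1, irradiated vehicle mice were called lower in 10 of 10, with log2 fold changes from -4.90 for Ciita to -3.28 for H2-DMa. Their median was -3.98, against 0.09 over all genes. In edgeR 16.4% of all genes were called lower and 14.0% were lower without overlap, as all 10 class II genes were. Against vehicle mice of Day 0 all 10 were also called lower (11.8% of all genes), with a median of -3.77.

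Ciita ranged from 73.0 to 122 CPM without TBI and from 1.07 to 6.20 CPM after it, and fell by 4.90 ± 0.35 on the log2 scale, 29.9-fold (edgeR adjusted p = 2.15e-06). H2-Ob went from 70.8 to 105 CPM without TBI to between 1.40 and 5.04 CPM after it, and fell by 4.74 ± 0.29 (edgeR adjusted p = 8.54e-07). H2-Oa ranged from 14.4 to 20.3 CPM and from 0.366 to 1.36 CPM, a log2 fold change of -4.22 ± 0.29. Ciita and both H2-O chains thus had the lowest fold changes of the 10, which were not tested against the others.

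H2-Aa ranged from 427 to 649.8 CPM without TBI and from 16.3 to 50.0 CPM after it, and fell by 4.00 ± 0.28 on the log2 scale (edgeR adjusted p = 1.73e-06). The beta chains H2-Ab1 and H2-Eb1 fell by 3.99 ± 0.31 and 3.51 ± 0.30 on the log2 scale, and Cd74 fell by 3.75 ± 0.32. H2-DMa, which ranged from 41.4 to 53.8 CPM without TBI and from 2.54 to 9.64 CPM after it, had the smallest fall, 9.75-fold (edgeR adjusted p = 5.65e-06). The highest irradiated mouse for H2-DMa was mouse 51. The 7 B cell genes were all called lower too, from -4.39 for Fcrla to -2.46 for Cd22, with a median of -3.48. Without the mice with over 10 CPM of Alb, the median of the 10 class II genes was -4.22.

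The comparison of 200 mg/kg with vehicle among irradiated mice asked whether the drug changed the response. Here 0 of the 10 genes were called by edgeR (0% of all genes) or DESeq2, and none had an unadjusted p under 0.05. The log2 fold changes ran from -0.40 to -0.12, with SEs of 0.28 to 0.50, so that differences of this size could not be detected with this spread. Against unirradiated mice at the same dose, irradiated mice at 200 mg/kg were lower in 10 of 10 genes (5.73% of all genes were called lower), with a median of -2.64 against 0.41 over all genes. The groups did not overlap in 8 of the 10 genes, as in 5.65% of all genes in this direction, and overlapped in H2-DMa and H2-DMb1. Against unirradiated vehicle mice, irradiated mice at 200 mg/kg were lower in 10 of 10 genes (16.9%), with a median of -4.27.

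In this comparison at 200 mg/kg Ciita again had the largest fall, from between 9.97 and 43.5 CPM to between 1.60 and 4.95 CPM (-3.35 ± 0.36, edgeR adjusted p = 5.51e-05). H2-Aa fell by 3.10 ± 0.36 and Cd74 by 2.68 ± 0.36 on the log2 scale. H2-DMb1, already low at 200 mg/kg, fell by 1.73 ± 0.53 on the log2 scale (edgeR adjusted p = 0.0274), and its call was lost without any of mice 44, 45, 46, 48, 56, 58, 59 and 60. The contrast of the 2 TBI effects was positive for all 10 genes, meaning a smaller fitted log2 fall after TBI at 200 mg/kg than with vehicle, with a median of 1.38 against 0.60 over all genes. It was called for 6 genes (19.5% of all genes called higher), with 2.25 ± 0.38 for H2-Ob (edgeR adjusted p = 0.000203) and 2.21 ± 0.64 for H2-DMb1 (0.00994) the largest. The others called were Ciita, H2-DMb2, H2-Oa and H2-Ab1. The same contrast called all 7 B cell genes higher, from 1.19 to 1.75, and all 8 T cell genes higher, from 1.71 to 3.05, and their part in the class II values was not tested. Scaled by library totals it was called higher for all 10 class II genes and for 43.6% of all genes. These fits share the 200 mg/kg mice of Day 1, whose class II levels stood below vehicle without irradiation.

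To set the class II genes against the loss of B cell transcripts, each library was scaled by the geometric mean of 8 B cell reference genes. A value of 0 then means that a class II gene moved as much as these B cell genes did on average. The B cell genes themselves spread around 0 on this scale, and the values of the 7 named above, which are part of the scale, and of a second list of 8 (Bank1, Spib, Fcer2a, Cr2, Cd72, Ebf1, Fcmr and Pou2af1) are given beside those of the class II genes. The median of this geometric mean was 105 CPM in vehicle mice of Day 1, 29.6 and 32.5 CPM at 100 and 200 mg/kg, and 10.0 and 6.67 CPM in the irradiated vehicle and 200 mg/kg groups. At 50 mg/kg on Day 0, 0 of the 10 genes were called relative to it by edgeR (10.2% of all genes were), and none had an unadjusted p under 0.05, and the median was 0.07.

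On Day 1 the class II genes lay on both sides of the B cell mean. At 100 mg/kg 0 of the 10 were called relative to them (56.9% of all genes were in edgeR, and 7 of the 10 had an unadjusted p under 0.05), but 7 passed by adjusted p alone, 4 higher and 3 lower, against 54.2% and 9.47% of all genes. H2-Aa was higher by 0.56 ± 0.16 (edgeR adjusted p = 0.00819), followed by H2-DMa, H2-Oa and H2-Eb1. H2-DMb1 (-0.64 ± 0.21, edgeR adjusted p = 0.0169), H2-Ob (-0.44 ± 0.17) and Ciita (-0.37 ± 0.14) were lower. At 200 mg/kg 0 were called by edgeR (54.7%, with 5 at an unadjusted p under 0.05), and by adjusted p alone, which 53.5% of all genes passed higher and 6.63% lower, H2-DMa was higher (0.53 ± 0.18, edgeR adjusted p = 0.017) and H2-DMb1 (-0.64 ± 0.25) and H2-Ob (-0.46 ± 0.19) were lower. H2-Aa did not pass there (0.50 ± 0.22, edgeR adjusted p = 0.0628). For H2-Aa the log2 ratio in vehicle mice ran from 2.11 to 2.35 (median 2.25), against 2.67 to 2.96 at 100 mg/kg (median 2.77) and 2.41 to 2.85 at 200 mg/kg (median 2.81), with no overlap. Ratios without overlap and higher were common over all genes, with 37.6% at the lower of these doses and 41.7% at the higher, and the median of all genes relative to the B cell genes was 1.19 and 1.23. The 15 B cell genes also lay on both sides, from -0.43 for Cd22 to 0.66 for Spib at 100 mg/kg and from -0.36 for Fcer2a to 0.83 for Spib at 200 mg/kg. By adjusted p alone Spib was higher at both doses, and Cd22 and Cr2 were lower at 100 mg/kg. Ratios of Cd79b and Spib were higher without overlap at both doses, and that of Pou2af1 at 100 mg/kg. Those of Fcer2a at both doses, Cd22 at 100 mg/kg and Cr2 at 200 mg/kg were lower without overlap.

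After TBI, 2 of the 10 genes were called lower than the B cell mean, where 0.215% of all genes were, and so was 1 of the 15 B cell genes, Fcer2a. This scale divides by genes that fell after TBI, and over all genes 23187 were called higher on it and 54 lower. The small shares of all genes that were lower are therefore set by the scale, and the 15 B cell genes are the closer background. Ciita had log2 ratios from -0.33 to -0.02 in vehicle mice of Day 1 (median -0.13) and from -2.34 to -1.18 in irradiated vehicle mice (median -1.66), a difference of -1.49 ± 0.23 (edgeR adjusted p = 2.17e-05). H2-Ob had ratios from -0.65 to -0.34 and from -2.45 to -1.16, a difference of -1.25 ± 0.24 (edgeR adjusted p = 0.000179). H2-Aa, H2-Ab1 and H2-DMb2 were lower by adjusted p alone, with -0.55, -0.56 and -0.48, so 5 of 10 passed it where 0.282% of all genes did in this direction. These 5 genes had ratios below and without overlap with vehicle, as did 0.123% of all genes and 3 of the 15 B cell genes. These 3, Fcer2a (-1.53), Fcrla (-0.94) and Cd79a (-0.41), also passed by adjusted p, while Cd22 was called higher, at 1.09. Ciita and H2-Ob thus lay within the range of the B cell genes. H2-DMa (0.15 ± 0.21) and H2-Eb1 (-0.06 ± 0.20) did not pass, with edgeR adjusted p of 0.517 and 0.769. The Cd74 value was -0.32 ± 0.22 (edgeR adjusted p = 0.189).

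At 200 mg/kg, the Ciita value after TBI relative to the B cell genes was -1.12 ± 0.31 (edgeR adjusted p = 0.00371), the only gene of the 10 called, against 0.102% of all genes called lower. Here 19747 genes were called higher and 24 lower, so the small shares of lower genes are again set by the scale. The B cell genes Fcer2a (-1.23) and Fcrla (-1.01) were called lower too and Cd22 (1.52) higher, so that Ciita lay within their range. H2-Aa and H2-Ab1 passed by adjusted p alone, as 0.127% of all genes did lower, with -0.97 ± 0.25 for H2-Aa (edgeR adjusted p = 0.00254). With the second list as the scale the call of Ciita was lost at -0.94, and without mouse 43 or mouse 57, or without the mice with over 10 CPM of Alb, 2 genes were called. Between the irradiated groups 0 genes were called relative to the B cell genes (0% of all genes), with none at an unadjusted p under 0.05.

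**Figure D3:**
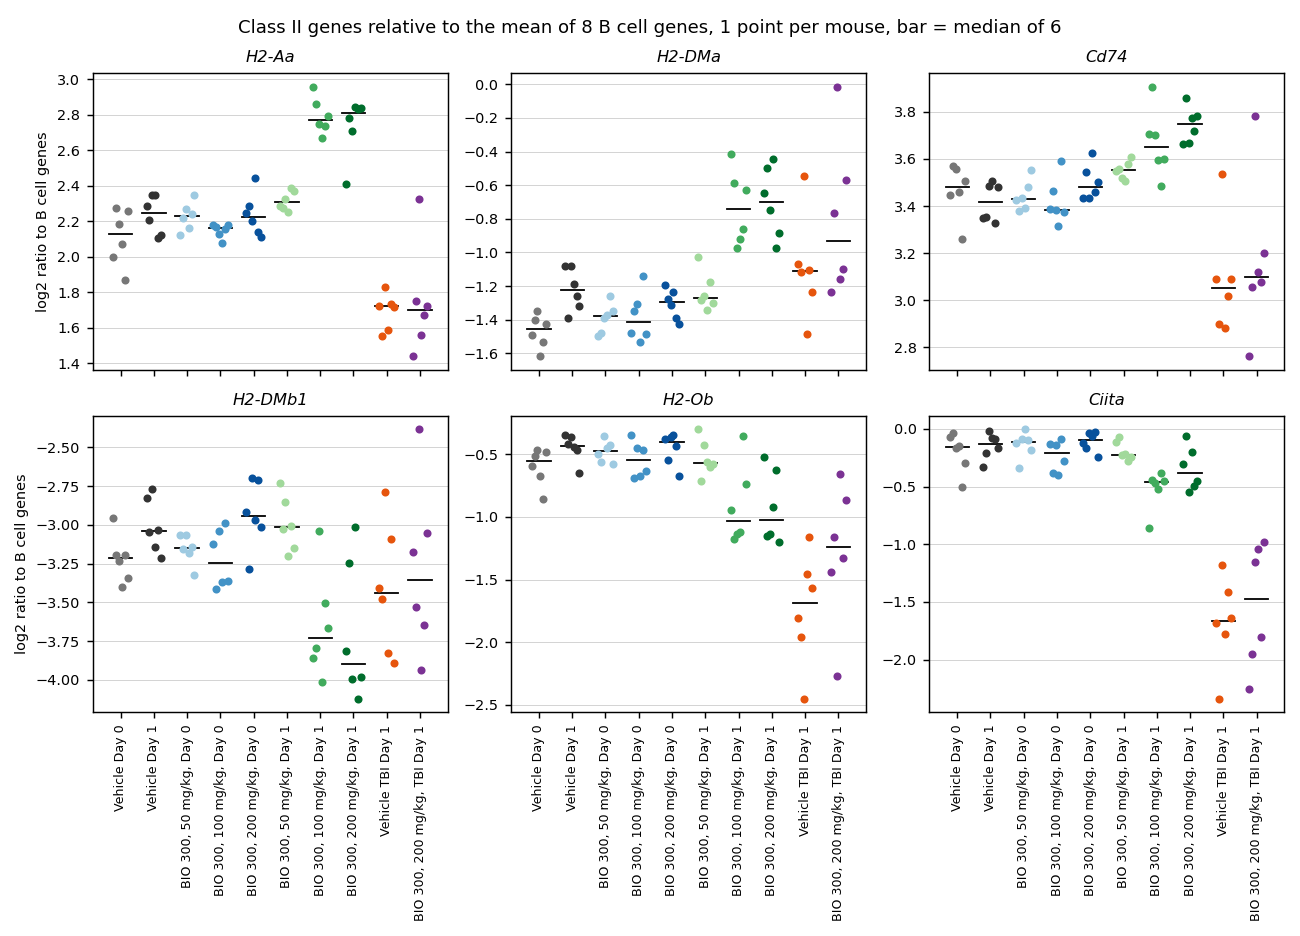
Log2 ratio of 6 class II genes to the geometric mean of 8 B cell genes in each mouse (1 point per mouse, bar at the median of 6), by group. Ciita and H2-Ob lie lower after TBI than in every vehicle mouse of Day 1, and H2-Aa lies higher at 100 and 200 mg/kg on Day 1. The difference of H2-Aa at 200 mg/kg did not pass by adjusted p.

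Of the other genes of the pathway, the 2 further class II loci moved with the 10. H2-Ea-ps, the E alpha locus that is broken in C57BL/6 and annotated as a polymorphic pseudogene, ranged from 173 to 263 CPM in vehicle mice of Day 1, from 28.6 to 136 CPM at 200 mg/kg and from 5.68 to 24.2 CPM after TBI with vehicle. It fell by 1.41 ± 0.27 and 3.97 ± 0.30 on the log2 scale (edgeR adjusted p = 0.000372 and 3.02e-06). H2-Eb2, a little expressed beta chain, was called lower at both doses of Day 1 and after TBI, where 1 or more mice had 0 counts.

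Of 7 transcription factor genes that work with Ciita, Rfx5, the largest RFX subunit, was the only one called in each of the Day 1 doses of 100 and 200 mg/kg and after TBI. It was lower at each, by 1.63 ± 0.26 at 200 mg/kg and by 1.85 ± 0.28 after TBI on the log2 scale, a smaller fall than that of Ciita in both, though this difference was not tested. The NF-Y subunits Nfya, Nfyb and Nfyc and the CREB gene Creb1 were called at none of these 3. Of 7 genes that prepare antigen and trim the invariant chain, 3 were called higher and 1 lower at 200 mg/kg. Over all 23513 genes tested there, 4073 were called higher and 7168 lower. The lysosomal proteases Ctsb, Ctsd and Lgmn rose by 2.12, 2.29 and 1.49 on the log2 scale, while Ctss, which cuts the invariant chain in B cells, fell by 1.11 ± 0.30. After TBI Ctsd rose by 2.49 ± 0.17, Sppl2a rose by 1.07 ± 0.12 and Ifi30, a lysosomal thiol reductase, fell by 2.42 ± 0.36 on the log2 scale.

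Costimulatory genes did not all follow. At 200 mg/kg on Day 1 all 4 (Cd40, Cd80, Cd86 and Icosl) were called lower, as were 30.5% of all genes. After TBI Cd40 was lower and Cd80, which binds CD28 on T cells, was higher: it ranged from 2.09 to 3.72 CPM in vehicle mice of Day 1 and from 7.62 to 18.4 CPM after TBI (2.18 ± 0.24, edgeR adjusted p = 2.11e-05). Of the genes that control the turnover of class II at the surface, Cd83 fell after TBI (-3.65 ± 0.26). The median of March1 went from 88.0 CPM in vehicle mice of Day 1 to 69.2 CPM after TBI with vehicle. That of March8 went from 152 to 233 CPM. In both genes these groups overlapped. Genes listed as markers of other presenting cells moved in both directions after TBI. Of 6 dendritic cell genes 3 were called higher and 2 lower, and of 6 classical monocyte genes 2 were higher and 3 lower. Over all genes 4920 were called higher and 4122 lower. The summed level of the dendritic cell genes had a median of 35.6 CPM in vehicle mice of Day 1 (29.2 to 39.7) and 83.2 CPM after TBI (32.7 to 95.5). By medians Xcr1, Clec9a and Itgax were higher after TBI, and Flt3 and Cd209a lower. Without TBI, Xcr1 and Clec9a were also higher at 200 mg/kg on Day 1 (33.6 and 16.2 CPM, against 4.92 and 4.08), while Flt3, Cd209a and Itgax were lower. F13a1, on the classical monocyte list, had medians of 155 CPM in vehicle mice of Day 1, 1155 CPM at 200 mg/kg and 747 CPM after TBI. The summed platelet genes had medians of 2405, 22350 and 14110 CPM in these groups. Which cells the RNA of F13a1, Xcr1 and Clec9a came from was not tested. The part of other presenting cells in the class II levels was not tested either.

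**Figure D4:**
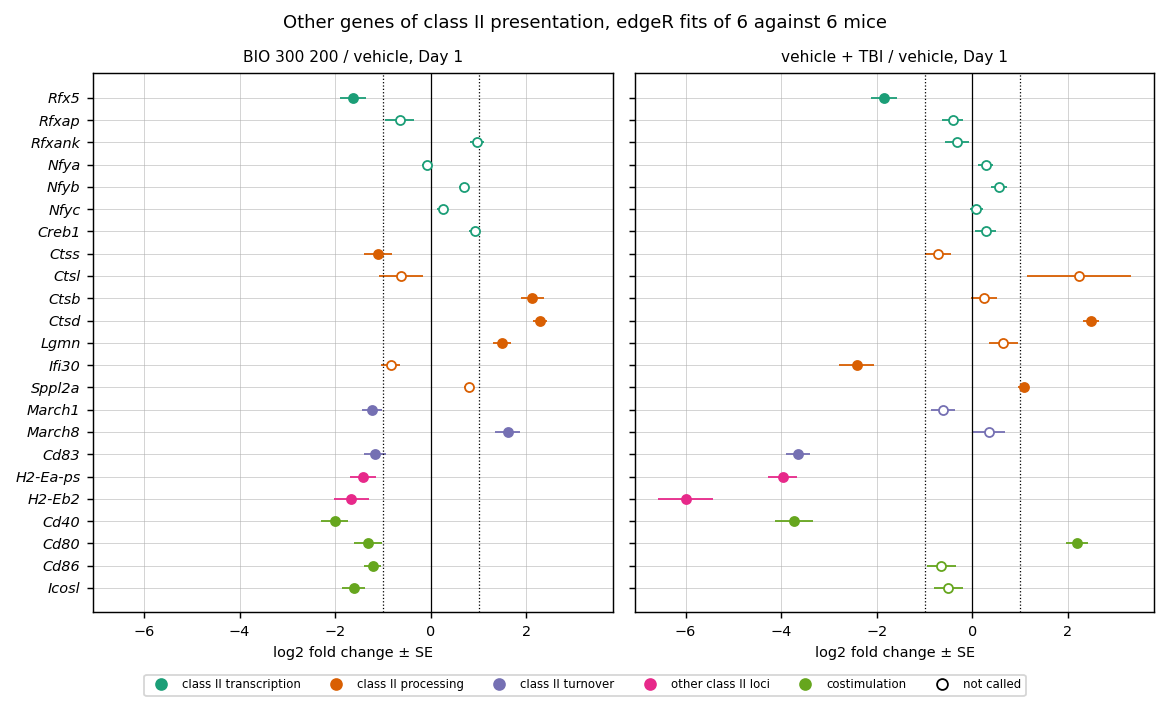
Log2 fold change (± 1 SE) of 23 other genes of class II presentation at 200 mg/kg on Day 1 (left) and after TBI with vehicle (right), each against vehicle mice of Day 1. Filled points are called, open points are not, and dotted lines mark the limits at 1 and -1. The class II loci, Rfx5, Cd40 and Cd83 are called lower in both panels, and Ctsd higher in both.

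The gene whose profile over the 60 mice was most like that of Cd74, among 6729 other genes with a mean of at least 10 CPM, was H2-Ea-ps, with a root mean square difference of 0.16 between centred log2(CPM + 1) values. Cd79a, Fcrla, Cd79b and Ebf1 followed, at 0.17 to 0.31. Cd74 differed from the classical chain H2-Ab1 by 0.09 and from H2-Eb1 by 0.15. Among 13475 genes with a mean of at least 1 CPM, those most like Ciita were B3gnt5 (0.30), Chst3 (0.34), Fcrla (0.34), Fcer2a (0.36) and H2-Ea-ps (0.38). These values describe likeness over the same mice, which share group differences and composition.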

How the data were processed

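Per the labels and the study's methods, the authors sequenced whole blood RNA, used Trimmomatic 0.36 for trimming, STAR 2.5.2b for alignment to GRCm38, and counted unique hits per gene with Subread 1.5.2. Library preparation differs between the sources: ribosomal and globin depletion of stranded total RNA in the methods, poly(A) selection in the labels. The annotation release is not given in the sources used here. The deposited raw counts, without normalization, were used. The deposited size-factor normalized values, fold changes and p-values of the authors' DESeq2 comparisons were not used.

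Each of 12 pairs of groups was fitted with edgeR 4.0.16 (quasi-likelihood, TMM; limma 3.58.1, R 4.3.3) on genes with at least 10 summed counts, as were 4 contrasts of 4 groups. p-values were adjusted by Benjamini-Hochberg over all genes tested, and a gene was called at an adjusted p under 0.05 with a log2 fold change beyond 1 in either direction. The SE is the absolute log2 fold change divided by the square root of F. A further 6 fits replaced library size by the geometric mean of B cell gene counts plus 0.5, over 8 genes of which 1 is not reported here. Levels in CPM use TMM over 60 mice, so they need not give the fitted folds. DESeq2 1.42.0 was the second tool. The scripts were tested on simulated counts. Total counts per mouse were 15099415 to 45589415, and precision is limited by the spread of 6 mice a group. The members and lists were chosen with earlier results of these data known. All members and listed genes but that one could be named, with the 5 genes most like Cd74 and Ciita.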

Additional observations from a re-analysis of the deposited data

Results flagged for a closer look

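In groups of 6, a highest or lowest mouse was checked for a gap to its nearest neighbour above Dixon's limit. Of 100 checks (10 genes, 10 groups), 10 passed. Chance alone passes about 1 in 20 independent checks, or 5, but the genes of 1 mouse are not independent, so the 2 counts cannot be compared. Mouse 57 of the 200 mg/kg group with TBI stood above its group in H2-Aa (55.3 CPM), H2-Ab1 (40.3), H2-Eb1 (41.1), H2-DMa (10.9), H2-DMb1 (2.10) and Cd74 (152 CPM). Mouse 51 of the vehicle group with TBI stood above in H2-DMa (9.64 CPM) and H2-DMb1 (2.03 CPM). Both mice are among the 16 with over 10 CPM of Alb, and the part of that in these levels was not tested. For H2-DMb1, mouse 26 of the vehicle group of Day 1 (17.0 CPM) and mouse 46 of the 200 mg/kg group of Day 1 (6.16 CPM) also stood apart.

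The effect of BIO 300 differed between days in the day by dose contrast of edgeR. At 50 mg/kg this held for H2-Oa (-1.01, log2). At 100 mg/kg the differences were -1.03 for H2-Aa, -1.34 for H2-Ab1, -1.17 for H2-Eb1, -1.15 for H2-DMa, -2.25 for H2-DMb1, -1.46 for H2-DMb2, -1.22 for H2-Oa, -2.09 for H2-Ob, -1.23 for Cd74 and -1.85 for Ciita. At 200 mg/kg they were -1.08, -1.33, -1.11, -1.06, -2.30, -1.43, -1.28, -2.06, -1.16 and -1.70 in the same order of genes. Over all genes, 0.961%, 26.3% and 23.6% were called lower in the contrasts at 50, 100 and 200 mg/kg. The B cell genes Ms4a1, Cd79a, Cd79b, Cd22, Pax5, Blk and Fcrla and the T cell genes were called lower too at 100 and 200 mg/kg.

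The effect of TBI differed between 200 mg/kg and vehicle, with a difference of 1.36 for H2-Ab1, 2.21 for H2-DMb1, 1.505 for H2-DMb2, 1.40 for H2-Oa, 2.25 for H2-Ob and 1.67 for Ciita. The same contrast called 19.5% of all genes higher, among them the B cell genes Ms4a1, Cd79a, Cd79b, Cd22, Pax5, Blk and Fcrla. Unirradiated mice at 200 mg/kg already stood below vehicle in these class II genes, and between the irradiated groups no class II gene was called.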

How the results depend on the processing

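Of 126 counts of called class II genes under single alternatives, 117 stayed within 1.5 times the reported count, as did 214 of 216 with 1 mouse left out. Scaled by library totals, 8 genes instead of 0 were called at 50 mg/kg on Day 0 (with 10.5% of all genes higher), 10 instead of 1 in the day by 50 mg/kg contrast (with 38.7% of all genes lower) and 10 instead of 6 in the TBI by 200 mg/kg contrast (with 43.6% of all genes higher), where this scaling moved the median of all genes from 0.60 to 1.68. The day by 50 mg/kg contrast called 0 with DESeq2, with filterByExpr and without a filter. Relative to the B cell genes, TBI at 200 mg/kg called 0 with the second B cell list, 2 with summed B cell counts, 2 without the mice with over 10 CPM of Alb (an alternative chosen after seeing the data) and 1 to 2 with 1 mouse left out. The cause was not tested. Over all genes, library totals changed the split of higher and lower calls from 4314 and 7249 to 980 and 14735 at 100 mg/kg on Day 1, from 31 and 1072 to 2563 and 307 at 50 mg/kg on Day 0, and from 3521 and 1352 to 9100 and 223 for TBI at 200 mg/kg.

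Values near 0 relative to the B cell genes changed sign. H2-DMb2 at 200 mg/kg on Day 1 (0.05) was -0.0447 without the Alb mice and -0.0100 to 0.1177 with 1 mouse left out, and at 100 mg/kg (0.03) was -0.0605 to 0.0675. After TBI with vehicle, H2-Eb1 (-0.06) was 0.20 with the second list and H2-DMa (0.15) was -0.0031 without the Alb mice. After TBI at 200 mg/kg, H2-DMa (-0.06) was 0.19 with the second list and -0.2684 to 0.0260 with 1 mouse left out. At 100 mg/kg on Day 1 the count of 8 became 7 with DESeq2 and 6 with filterByExpr.

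No paired analysis was possible because the animal numbers run through the series without repeating, so that no number is shared between groups.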

Other observations

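T cell genes, which mark both the CD4 cells that read class II and the CD8 cells that read class I, were also lower on Day 1. All 8 (Cd3e, Cd3g, Cd3d, Cd4, Cd8a, Cd8b1, Lck and Trac) were called lower by edgeR at 100 and 200 mg/kg and after TBI with vehicle, with medians of -1.85, -1.77 and -2.43 on the log2 scale. Of all genes, 30.6%, 30.5% and 16.4% were called lower in these comparisons. Their summed level had a median of 399 CPM in vehicle mice of Day 1, 136 CPM at 200 mg/kg and 82.4 CPM after TBI with vehicle. Neutrophil genes went the other way after TBI, with 7 of 8 called higher and 1 lower. Over all 25146 genes tested after TBI with vehicle, 4920 were called higher and 4122 lower. Of 6 plasmacytoid dendritic cell genes, 5 were called lower after TBI with vehicle and none higher, and of 5 plasma cell genes 2 were lower. Of 6 patrolling monocyte genes 1 was called higher and 2 lower after TBI with vehicle.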
